A study of Mus musculus with 4 samples.

Results

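The 10 genes described here encode the subunits of the transcription factor NF-κB and the inhibitors that close its feedback loops: Nfkbia, Nfkbiz, Nfkbie, Nfkbid, Nfkb1, Nfkb2, Rel, Rela, Relb and Tnfaip3. They were taken by name, and all 10 were found among the 27998 gene rows of the count matrices. They were followed in mouse microglia, the resident macrophages of the brain, in 4 single-cell libraries (10x Genomics Chromium, which tags the 3′ end of transcripts). C57BL/6 mice received whole-brain irradiation, 1 dose of 8 Gy, at postnatal day 21, or served as sham controls, and cells were taken 6 h or 1 week later. The groups were irradiated mice at 6 h, sham mice at 6 h, irradiated mice at 1 week and sham mice at 1 week. Each group is 1 library pooled from 4 mice, so differences between mice cannot be seen, there are no replicates, and every interval below covers counting error only. The labels name brain microglia, while the design text speaks of hippocampal microglia.

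NF-κB works as pairs of Rel-family proteins that bind κB sites in DNA. In resting cells these pairs are held in the cytoplasm by IκB proteins. Signals from Toll-like, interleukin-1 and TNF receptors lead, through the IκB kinase, to the loss of IκB, and the freed pairs switch on cytokine and chemokine genes together with genes for their own inhibitors. In microglia and other macrophages this circuit is known for its part in inflammatory responses and in the production of chemokines such as Ccl3 and Ccl4.

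Microglia-like cells numbered 1905 of 1978 cells kept in the irradiated library at 6 h, 2625 of 2646 in the sham library at 6 h, 2128 of 2137 in the irradiated library at 1 week and 1558 of 1563 in the sham library at 1 week. Their UMIs (molecular tags that count a captured transcript once) summed to between 5566031 and 9660248 per library, with medians of 3434 to 3586 per cell. All 9 microglia markers were present in every library, at a summed level between 51250 and 60400 CPM (a gene's UMIs scaled to a fixed library total), with 2 of the 9 at least 1.5-fold lower in the irradiated library at 6 h than in its sham. Cdkn1a, a p53 target that blocks the cell cycle, stood at 2979 and 2215 CPM in the irradiated libraries at 6 h and 1 week, and at 52.3 and 56.4 CPM in the sham libraries of the same times, so this known radiation response followed the labels. P2ry12, a receptor of homeostatic microglia, was at 2939 CPM in the irradiated library at 6 h and at 6599 CPM in its sham. The libraries shared 41 barcode sequences, few against 8486 barcodes.

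RefSeq promoter windows of GRCm38.p6, which run from 250 bases before to 50 bases after a start site, were at hand for 7 of the 10 genes. The κB consensus, searched on both strands, was found in the windows of 6 of these 7 genes (8 of their 12 windows), against 1388 of 27025 genes (5.14%) and 4.51% of 32851 windows in all. The AP-1 motif TGANTCA with C or G in the middle was found in 2 of the 7, Nfkbie and Tnfaip3, against 5.95%. Shown are the windows of Nfkbia, whose RNA followed Fos and Ccl4 from cell to cell, and of Rela, the steadiest. The Rela window held no match. Also shown is a single window each of Tnfaip3 and Nfkb2, the genes with the largest differences between irradiated and sham cells at 6 h. These genes have other windows, which are not printed. Sequences run 5′ to 3′ on the gene's strand, and capitals mark κB consensus matches on either strand, with overlapping matches joined.
Nfkbia, chr12:55492598-55492897, minus strand: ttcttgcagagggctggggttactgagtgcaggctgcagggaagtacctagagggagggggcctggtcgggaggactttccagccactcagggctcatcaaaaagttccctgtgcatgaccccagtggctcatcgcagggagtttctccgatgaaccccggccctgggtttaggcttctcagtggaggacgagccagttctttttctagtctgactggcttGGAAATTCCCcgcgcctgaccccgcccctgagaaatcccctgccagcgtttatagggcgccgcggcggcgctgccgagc
Tnfaip3, chr10:19015361-19015660, minus strand: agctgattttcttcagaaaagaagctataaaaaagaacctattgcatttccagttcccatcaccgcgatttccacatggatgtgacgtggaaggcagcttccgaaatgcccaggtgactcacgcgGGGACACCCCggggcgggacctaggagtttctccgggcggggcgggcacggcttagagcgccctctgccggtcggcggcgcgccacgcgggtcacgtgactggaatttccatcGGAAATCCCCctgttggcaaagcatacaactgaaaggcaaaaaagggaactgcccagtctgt
Nfkb2, chr19:46304487-46304786, plus strand: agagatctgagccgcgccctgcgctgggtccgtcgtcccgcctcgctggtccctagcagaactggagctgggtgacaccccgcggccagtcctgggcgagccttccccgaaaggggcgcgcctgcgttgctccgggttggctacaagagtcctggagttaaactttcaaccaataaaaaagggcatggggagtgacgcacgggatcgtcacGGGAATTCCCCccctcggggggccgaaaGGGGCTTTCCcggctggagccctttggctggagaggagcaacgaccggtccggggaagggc
Rela, chr19:5637291-5637590, plus strand: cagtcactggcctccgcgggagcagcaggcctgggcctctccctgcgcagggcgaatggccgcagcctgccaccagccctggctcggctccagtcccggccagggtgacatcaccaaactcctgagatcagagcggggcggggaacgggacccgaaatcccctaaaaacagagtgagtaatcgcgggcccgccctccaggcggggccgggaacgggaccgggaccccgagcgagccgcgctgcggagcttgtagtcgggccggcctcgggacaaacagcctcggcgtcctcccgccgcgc
The Nfkbia match begins at position -29 from the start site and reads GGGAATTTCC on the other strand. Matches begin at -125 and -12 in Tnfaip3, and at -39, -38 and -11 in Nfkb2, where the first of these lie over each other. Further matches begin at -106 in Nfkbie, at -92 and -91 in Rel, and at -226 and -181 in a window of Nfkbid. In the Nfkb2 windows not printed, matches begin at -236 and 10 and at -225. Those at 10 and -225 are the same site in overlapping windows, so the count of windows with a match holds it in each. The Tnfaip3 window not printed held no match. A match is a run of letters and no evidence of binding in these cells.

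**Figure D1:**
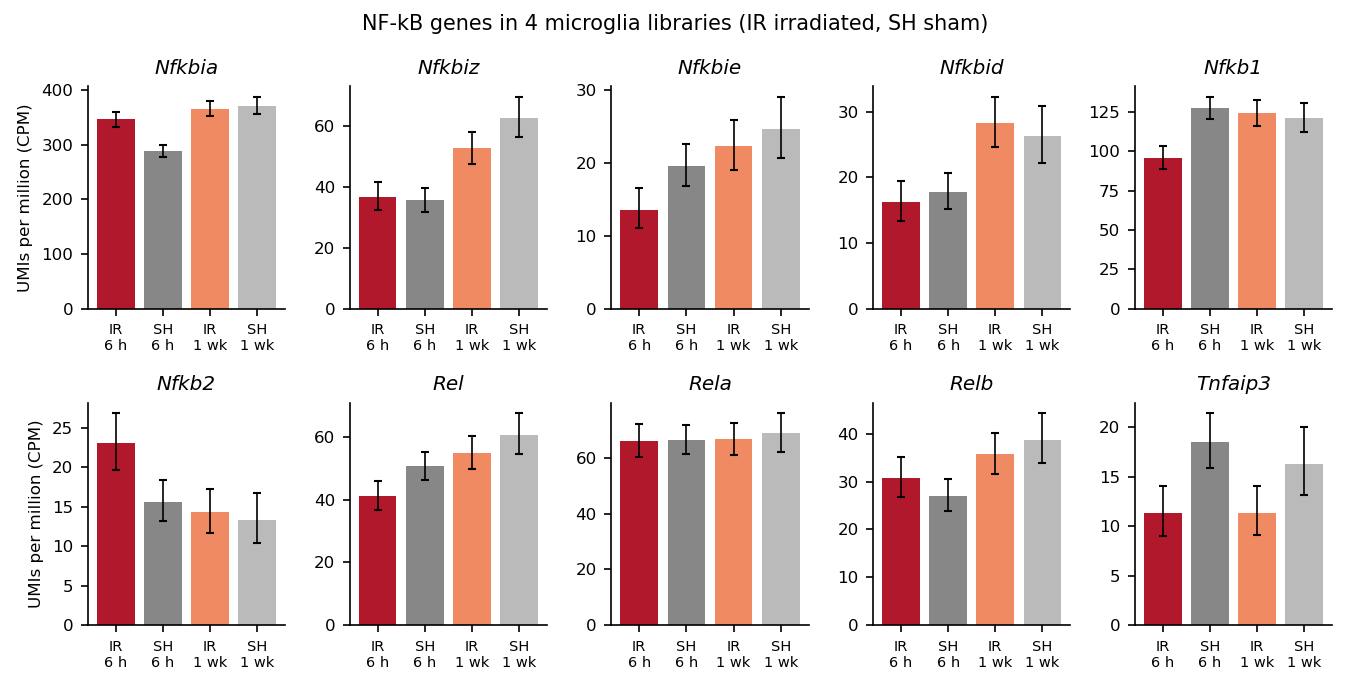
Levels of the 10 NF-κB genes in the microglia-like cells of each library, in CPM. Bars are 1 library each (IR irradiated, SH sham) and whiskers are exact 95% Poisson intervals. Rela is level across the 4 libraries, Nfkb1 is lowest and Nfkb2 highest in the irradiated library at 6 h, and Nfkbiz and Nfkbid are higher in both libraries at 1 week.

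The subunits come first, in annotation coordinates of GRCm38 (mm10). Rela (ENSMUSG00000024927, chromosome 19, 5637483 to 5648130, plus strand) encodes p65, the main activating partner of the canonical pair. Its level was 66.1 CPM in the irradiated library at 6 h (473 UMIs), 66.5 CPM in its sham (642), 66.6 CPM in the irradiated library at 1 week (509) and 68.8 CPM in its sham (383). The highest was 1.04 times the lowest, and the intervals of all neighbours in this order overlapped. The log2 fold of irradiated over sham was -0.01 at 6 h (-0.18 to 0.17) and -0.05 at 1 week (-0.24 to 0.15).

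Nfkb1 (ENSMUSG00000028163, chromosome 3, 135584655 to 135691547, minus strand) encodes p105, the precursor of the p50 subunit. It stood at 96.0 CPM in the irradiated library at 6 h (interval 88.9 to 103), against 128 CPM in its sham (121 to 135). The values at 1 week were 124 CPM in the irradiated library and 121 CPM in its sham. The irradiated library at 6 h was thus apart from the other 3, whose intervals overlapped. Its log2 fold was -0.41 at 6 h (-0.55 to -0.27), and 0.03 at 1 week (-0.11 to 0.18). The gene overlaps Gm43430 on the same strand in the annotation, so reads could be split between them.

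Rel (ENSMUSG00000020275, chromosome 11, 23736847 to 23770970, minus strand) encodes c-Rel, an activating subunit of immune cells. Its levels were 41.1 CPM in the irradiated library at 6 h and 50.6 CPM in its sham, then 54.9 CPM in the irradiated library at 1 week and 60.7 CPM in its sham. The lowest was again the irradiated library at 6 h, with a log2 fold of -0.30 (-0.51 to -0.09). At 1 week the log2 fold was -0.15 (-0.36 to 0.06).

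Nfkb2 (ENSMUSG00000025225, chromosome 19, 46304320 to 46312385, plus strand) encodes p100, the precursor of p52 and an inhibitor of RelB, and is itself a known NF-κB target. It was at 23.1 CPM in the irradiated library at 6 h (165 UMIs), against 15.6 CPM in its sham (151 UMIs). At 1 week it was at 14.3 CPM in the irradiated library (109 UMIs) and 13.3 CPM in its sham (74 UMIs). Only the irradiated library at 6 h stood clear of the others by its interval (19.7 to 26.9). The fold at 6 h was 1.47, log2 0.56 (0.23 to 0.89), just under the 1.5-fold used here to call a difference. With TMM or median-of-ratios scaling it passed 1.5-fold (log2 0.60 and 0.61), as it did against the sham at 1 week (0.79). Psd and AC114539.1 overlap Nfkb2 on the other strand, and whether strand was used in counting is not given in the sources used here.

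Relb (ENSMUSG00000002983, chromosome 7, 19606217 to 19629438, minus strand) encodes the partner of p52 in the non-canonical pathway. Its levels were 30.7 CPM in the irradiated library at 6 h and 27.0 CPM in its sham, then 35.7 CPM in the irradiated library at 1 week and 38.8 CPM in its sham. Sorted by level, each library's interval overlapped that of the next, while the sham at 6 h (23.8 to 30.5) lay below both libraries at 1 week. The log2 folds, 0.19 at 6 h (-0.08 to 0.45) and -0.12 at 1 week (-0.38 to 0.15), each had 0 within the interval.

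Among the inhibitors, Nfkbia (ENSMUSG00000021025, chromosome 12, 55489410 to 55492647, minus strand) encodes IκBα, which pulls NF-κB back out of the nucleus and is a textbook early target of it. Its level was 347 CPM in the irradiated library at 6 h (2482 UMIs, 333 to 361) and 288 CPM in its sham (2783 UMIs, 277 to 299). At 1 week it was 366 CPM in the irradiated library (2797 UMIs) and 372 CPM in its sham (2069 UMIs). The sham at 6 h was the low library, and the other 3 lay close together. The log2 fold was 0.27 at 6 h (0.19 to 0.35) and -0.02 at 1 week (-0.10 to 0.06). The 2 sham libraries lay further apart than irradiated and sham at 6 h, with a log2 fold of 0.37 for the sham at 1 week over the sham at 6 h (0.28 to 0.45). Set against the sham at 1 week, the irradiated library at 6 h had a log2 fold of -0.10, so the direction at 6 h depends on the sham used.

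Nfkbiz (ENSMUSG00000035356, chromosome 16, 55811375 to 55838899, minus strand) encodes IκBζ, a nuclear co-factor of NF-κB at secondary response genes. It was at 36.9 CPM in the irradiated library at 6 h and 35.6 CPM in its sham, and at 52.8 CPM in the irradiated library at 1 week and 62.9 CPM in its sham. The libraries at 1 week were higher than those at 6 h in either treatment. The log2 fold of irradiated over sham was 0.05 at 6 h (-0.19 to 0.29) and -0.25 at 1 week (-0.46 to -0.04).

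Nfkbid (ENSMUSG00000036931, chromosome 7, 30421732 to 30428746, plus strand) encodes IκBNS, another nuclear IκB. Its levels were 16.2 CPM in the irradiated library at 6 h and 17.8 CPM in its sham, then 28.3 CPM in the irradiated library at 1 week and 26.2 CPM in its sham. As with Nfkbiz, the times differed and the level intervals of the treatments within a time overlapped. The log2 fold of irradiated over sham was -0.14 at 6 h (-0.49 to 0.21) and 0.11 at 1 week (-0.20 to 0.42). Both intervals held 0, unlike that of Nfkbiz at 1 week.

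Nfkbie (ENSMUSG00000023947, chromosome 17, 45555703 to 45563169, plus strand) encodes IκBε, a slower cytoplasmic inhibitor. It stood at 13.6 CPM in the irradiated library at 6 h (97 UMIs, 11.0 to 16.5) and 19.6 CPM in its sham (189 UMIs, 16.9 to 22.6). The 1 week values were 22.3 CPM in the irradiated library and 24.6 CPM in its sham. The irradiated library at 6 h was below the other 3, with a log2 fold of -0.53 (-0.90 to -0.17), short of 1.5-fold. As a mean over cells, where each cell counts once, the log2 fold was -0.59, past it.

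Tnfaip3 (ENSMUSG00000019850, chromosome 10, 19000910 to 19015657, minus strand) encodes A20, a ubiquitin-editing enzyme that shuts off signalling upstream of the IκB kinase. It was at 11.3 CPM in the irradiated library at 6 h (81 UMIs, 8.99 to 14.1), against 18.5 CPM in its sham (179 UMIs, 15.9 to 21.5). At 1 week it was at 11.4 CPM in the irradiated library (87 UMIs) and 16.3 CPM in its sham (91 UMIs). Both irradiated libraries had lower values than both shams, though neighbours in the order of levels had overlapping intervals. The log2 fold was -0.71 at 6 h (-1.11 to -0.32), past 1.5-fold lower, and -0.52 at 1 week (-0.96 to -0.08), short of it. The interval at 6 h includes folds smaller than 1.5. Against the sham at 1 week, the irradiated library at 6 h had a log2 fold of -0.53 and was no longer past 1.5-fold. The irradiated library at 1 week was past it as a mean over cells (-0.61) and against the sham at 6 h (-0.70).

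**Figure D2:**
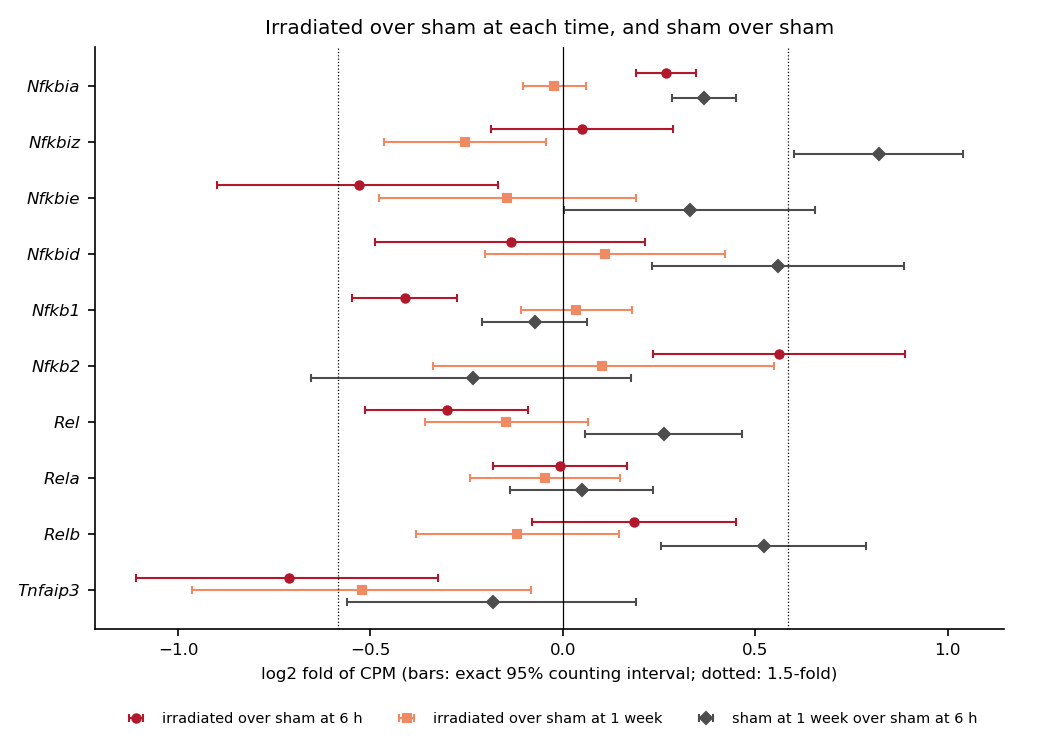
Log2 folds of the 10 genes between libraries, with exact 95% counting intervals, for irradiated over sham at 6 h (red circles), irradiated over sham at 1 week (orange squares) and sham at 1 week over sham at 6 h (grey diamonds). Dotted lines mark 1.5-fold. Tnfaip3 at 6 h (-0.71) and Nfkbiz between the shams (0.82) lie past the lines, and Rela stays near 0 throughout.

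Few of the 10 genes were past 1.5-fold between irradiated and sham cells. At 6 h, 0 of 10 were at least 1.5-fold higher and 1, Tnfaip3, was at least 1.5-fold lower, where 9.02% of the 9885 measured genes were higher and 9.1% lower (18.1% either way). In thinned cells with no Fos UMI the call of Tnfaip3 ended, with a log2 fold of -0.36 (-1.08 to 0.34, 29 UMIs in the irradiated library and 47 in its sham), and Nfkbie was past 1.5-fold lower at -0.60 (-1.36 to 0.12). At 1 week, 0 of 10 were higher and 0 lower, where 3.98% of 9493 measured genes were higher and 3.1% lower (7.08% either way). Their median log2 fold was -0.07 at 6 h beside -0.06 over all measured genes, and -0.08 at 1 week beside 0.04. Their summed level was 682 CPM in the irradiated library at 6 h and 667 CPM in its sham, and 777 CPM in the irradiated library at 1 week and 805 CPM in its sham.

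The libraries of the 2 times differed as well. Between the shams, Nfkbiz was past 1.5-fold higher at 1 week (62.9 CPM) than at 6 h (35.6 CPM), a log2 fold of 0.82 (0.60 to 1.04). In thinned cells with no Fos UMI this call ended, with a log2 fold of 0.32 (-0.60 to 1.18, 17 UMIs at 1 week and 38 at 6 h), and Nfkbid stood at 0.92 (0.00 to 1.81). The count in all cells was 1 of 10, where 2.95% of 9704 genes were higher and 4.81% lower (7.76% either way). The median of the 10 was 0.30 beside -0.05 over all genes. Nfkbid (26.2 CPM at 1 week and 17.8 CPM at 6 h, log2 fold 0.56) and Relb (38.8 CPM at 1 week and 27.0 CPM at 6 h, log2 fold 0.52) came next. Between the irradiated libraries, Nfkbid (0.80, 0.47 to 1.14) and Nfkbie (0.72, 0.35 to 1.09) were past 1.5-fold higher and Nfkb2 (-0.69, -1.05 to -0.33) past 1.5-fold lower at 1 week than at 6 h. There 9.06% of 9728 genes were higher and 10.7% lower (19.8% either way). Age and library differ between the times and cannot be told apart. The 4 comparisons share libraries, so they are not independent of each other.

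Other RNA differed between the same libraries. Immediate early genes, which follow handling and stimulation within minutes, summed to 10776 CPM in the irradiated library at 6 h and 11867 CPM in its sham, and to 15205 CPM in the irradiated library at 1 week and 17662 CPM in its sham. Between the shams, 12 of 21 measured immediate early genes were at least 1.5-fold higher at 1 week and 0 lower, with a median log2 fold of 0.66. At 6 h astrocyte markers summed to 262 CPM in the irradiated library and 149 CPM in its sham, with none at 0 in the irradiated library and 2 of 7 at 0 in its sham. Monocyte markers summed to 46.5 CPM in the irradiated library and 35.8 CPM in its sham, with 2 of 8 at 0 in each. B cell markers summed to 39.7 CPM in the irradiated library, with 2 of 5 at 0, and 89.5 CPM in its sham, with 3 of 5 at 0. Oligodendrocyte precursor markers summed to 3.07 CPM in the irradiated library (22 UMIs, none of 5 at 0) and 0.414 CPM in its sham (4 UMIs, 3 of 5 at 0), and erythroid markers to 0.140 CPM in the irradiated library (1 UMI) and 2.38 CPM in its sham (23 UMIs). Border macrophage markers summed to 11.7 CPM in the irradiated library and 17.5 CPM in its sham, with 4 of 7 at 0 in each. Neutrophil markers had 7 of 9 at 0 in each. With all deposited barcodes kept, the 40 log2 folds stayed within their counting intervals. The part of these other RNAs in the differences of the 10 genes was not tested.

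The rest of the pathway was described from lists of its parts. Of 18 input receptors 13 were measured, with 0 higher and 1 lower past 1.5-fold at 6 h and a median log2 fold of -0.04. The lower one was Tnfrsf13b, a receptor for TNF-family ligands, at 84.4 CPM in the irradiated library and 140 CPM in its sham (log2 fold -0.73). Cd40, a co-stimulatory receptor, fell under the minimum of 50 UMIs, with 31 UMIs in the irradiated library and 1 in its sham (log2 fold 5.39, 2.80 to 10.7), and was singled out after its values were seen. Of 27 adaptors and kinases 24 were measured, with 2 higher and 1 lower and a median of -0.15. Traf3, which holds back the non-canonical pathway, had a log2 fold of 0.74 and Ticam1, the adaptor TRIF of Toll-like receptors, 0.62, while the ubiquitin ligase Traf6 had -0.75. Each of these 3 had few counts (29 to 122 UMIs per library).

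Of 18 other inhibitors 16 were measured at 6 h, with 2 higher and 1 lower and a median of 0.01. Zc3h12a, the RNase Regnase-1 that degrades cytokine mRNAs, was at 29.9 CPM in the irradiated library and 17.3 CPM in its sham (log2 fold 0.79, 0.49 to 1.09). N4bp1, an inhibitor that binds ubiquitin chains, was at 83.7 CPM in the irradiated library and 53.9 CPM in its sham (log2 fold 0.63, 0.46 to 0.81). Tnip1, a partner of A20, was at 8.66 CPM in the irradiated library and 13.6 CPM in its sham (log2 fold -0.65, -1.11 to -0.20). Tnip1 and Tnfaip3 were each the only gene of their list past 1.5-fold lower at 6 h, where 9.1% of all measured genes were. The receptors and the adaptors and kinases also had 1 each, so this is not particular to Tnip1 and Tnfaip3. The intervals of both include folds smaller than 1.5, and a link between Tnip1 and Tnfaip3 was not tested.

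The known target genes stood apart from the rest of the pathway at 6 h. Of 35 listed 27 were measured, with 17 higher and 0 lower past 1.5-fold and a median log2 fold of 1.51. Over all measured genes 9.02% were higher and 9.1% lower. Vcam1, an adhesion molecule, was at 34.5 CPM in the irradiated library and 3.31 CPM in its sham (log2 fold 3.38). Ccl4 was at 2499 CPM in the irradiated library and 364 CPM in its sham (log2 fold 2.78), and the chemokine Cxcl16 at 269 CPM in the irradiated library and 45.0 CPM in its sham (log2 fold 2.58). These targets were listed with earlier results of these data known, and many answer to other factors too. So Nfkbia, itself a target, differed 1.20-fold at 6 h in libraries where Ccl4 differed 6.87-fold and Ccl3 4.94-fold. The same list also differed between the shams, with 9 higher and 1 lower of 26 measured at 1 week over 6 h. There 2.95% of all measured genes were higher and 4.81% lower. In the sham at 1 week Ccl4 was at 873 CPM and Ccl3 at 731 CPM. The size of both folds at 6 h thus depends on the sham used.

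At 1 week, where 3.98% of all measured genes were higher and 3.1% lower, the lists differed. The receptors had 0 higher and 2 lower, Tlr1 (log2 fold -0.65) and Cd14 (-0.60), a co-receptor for bacterial lipopolysaccharide, of 13 measured. The adaptors and kinases had 0 higher and 0 lower of 24, and the other inhibitors 0 and 0 of 16. The targets split, with 4 higher and 7 lower of 25 and a median of -0.22. The chemokines Ccl2 (1.37) and Ccl7 (1.26) and the survival gene Bcl2l1 (0.70) were the furthest up. The cytokine Il1b (-1.43), the chemokine Cxcl10 (-1.29) and the growth factor Csf1 (-0.86) were the furthest down.

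**Figure D3:**
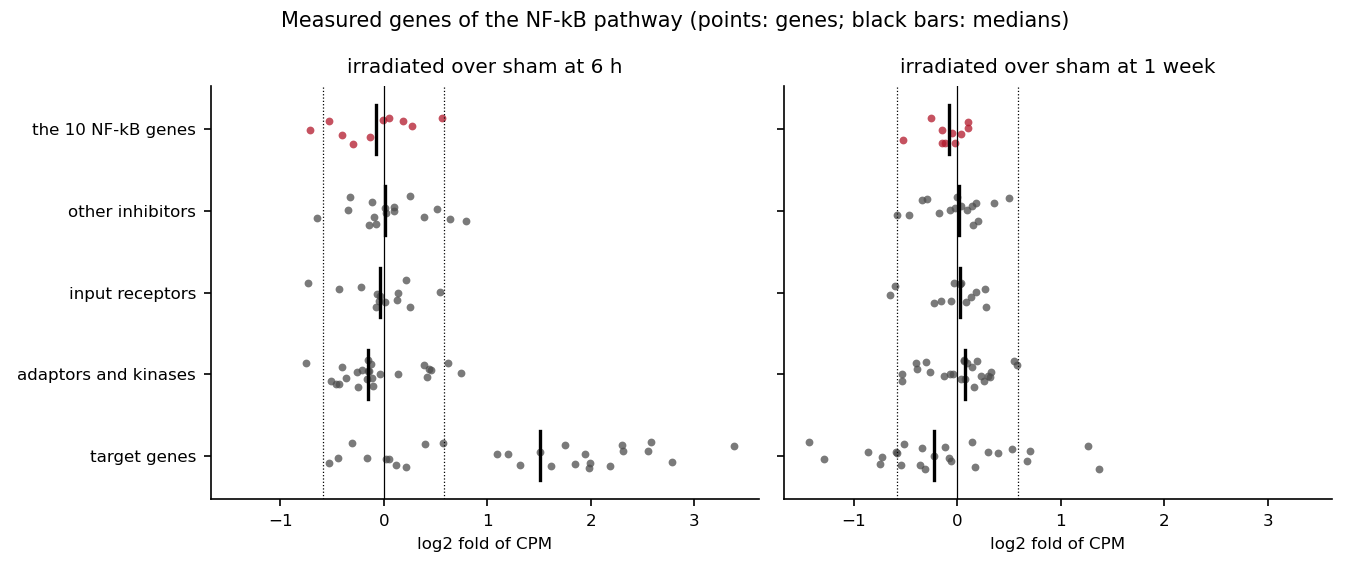
Log2 folds of CPM, irradiated over sham, for each measured gene of 5 parts of the NF-κB pathway at 6 h and at 1 week. Points are genes, black bars medians and dotted lines 1.5-fold. At 6 h the target genes (median 1.51) lie to the right of the 10 NF-κB genes (median -0.07) and of the receptors, adaptors and other inhibitors.

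The immediate early and p53 lists bear on the anchors used below. At 6 h, 1 of 21 measured immediate early genes was past 1.5-fold higher, Atf3 (log2 fold 1.63), and 5 were lower, led by the heat shock gene Hspa1b (-1.24), Fosb (-1.23) and Klf2 (-0.86). At 1 week 0 were higher and 7 lower, led by Klf4 (-1.36), Klf2 (-1.23) and Atf3 (-1.17). Of the p53 targets, 18 of 18 measured were past 1.5-fold higher at 6 h, led by Phlda3 (log2 fold 9.14), Cdkn1a (5.83) and Plk2 (5.27). At 1 week 15 of 17 were, led by Phlda3 (7.02), Cdkn1a (5.29) and Psrc1 (3.60).

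Per cell the NF-κB genes were sparse. With each cell thinned to 2000 UMIs, Nfkbia was seen in 36.5% of cells in the irradiated library at 6 h (34.3 to 38.7%), 32.2% in its sham (30.4 to 34.1%), 33.2% in the irradiated library at 1 week (31.1 to 35.3%) and 34.3% in its sham (31.7 to 36.8%). Without thinning the shares were 52.8% in the irradiated library at 6 h, 47.0% in its sham, 45.0% in the irradiated library at 1 week and 44.7% in its sham. Nfkb1 was seen in 17.3% of thinned cells of the irradiated library at 6 h (15.6 to 19.1%), against 21.6% in its sham, and in 23.0% of the irradiated library at 1 week and 21.6% of its sham. The share of cells thus set the irradiated library at 6 h apart for Nfkb1 as the level did. Tnfaip3 was seen in 2.59% of cells of the irradiated library at 6 h and 3.90% of its sham, and in 2.07% of the irradiated library at 1 week and 2.70% of its sham. No cell class here is known to lack these RNAs, so how much of a share is free RNA was not tested.

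Much of the Nfkbia RNA lay in few cells, as can be so for any sparse RNA. The tenth of cells with the most Nfkbia held 52.9% of its thinned UMIs in the irradiated library at 6 h, 57.3% in its sham, 64.4% in the irradiated library at 1 week and 60.5% in its sham. For Nfkb1 the values were 62.6%, 53.9%, 51.1% and 52.4% in the same order. Rela, seen in fewer cells, had 75.8 to 83.9%, so a high value is not particular to Nfkbia. Cells with at least 2 of 2000 UMIs made up 14.6% in the irradiated library at 6 h, 10.2% in its sham, 10.7% in the irradiated library at 1 week and 13.3% in its sham, with a highest count in a cell of 13 to 20. At 6 h the irradiated library thus held more cells with at least 2 Nfkbia UMIs than its sham. Which of the libraries at 6 h had the more even spread depended on the depth: thinned to 1500 UMIs, the same measure was 57.8% in the irradiated library and 56.8% in its sham. Cells with a UMI of at least 3 of the 10 genes made up 6.70% in the irradiated library at 6 h, 7.20% in its sham, 8.74% in the irradiated library at 1 week and 8.98% in its sham.

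Across cells, Nfkbia, Nfkbiz and Nfkbid went with Fos, an immediate early transcription factor, more closely than the subunits. The Spearman correlation of Nfkbia with Fos was 0.170 over 1905 cells of the irradiated library at 6 h, 0.198 over 2625 of its sham, 0.225 over 2128 of the irradiated library at 1 week and 0.282 over 1558 of its sham. Among 3945 genes seen in at least 10% of cells of every library, this put Nfkbia at ranks 19, 21, 17 and 15 for likeness to Fos, in the same order of libraries. Nfkbiz had correlations with Fos of 0.191 in the irradiated library at 6 h, 0.259 in its sham, 0.253 in the irradiated library at 1 week and a value between these in its sham. Nfkbid was lowest in the irradiated library at 6 h, at 0.080, and Tnfaip3 lay between 0.037 and 0.125. Among the subunits Rel reached 0.0651 and Relb 0.0621 at most, for Rela the highest of the 4 was 0.0405, and for Nfkb1 the irradiated library at 6 h was the lowest at -0.081. These cells share a library and its depth, the counts are sparse, and a weak correlation is a description only.

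With Ccl4, Nfkbia and Nfkbiz had lower correlations than with Fos in all 4 libraries, while Relb had higher ones before thinning. Nfkbid had a higher one with Ccl4 in the irradiated library at 6 h (0.0999, against 0.0803 with Fos) and lower ones in the other libraries. Nfkbia had 0.105 in the irradiated library at 6 h, 0.093 in its sham, 0.123 in the irradiated library at 1 week and 0.186 in its sham. Its ranks for likeness to Ccl4 among the 3945 genes were 245, 52, 22 and 15 in the same order, so it stood furthest down the list in the library with the most Ccl4. Its correlation itself was lowest in the sham at 6 h. The 95th percentile of the 3945 correlations with Ccl4 was 0.123 in the irradiated library at 6 h. It was 0.057, 0.056 and 0.064 in the libraries that follow, so the rank of 245 does not show a weaker correlation. Nfkbiz had 0.144 in the irradiated library at 6 h, 0.153 in its sham, 0.159 in the irradiated library at 1 week and 0.205 in its sham. Relb had 0.054 with Ccl4 in the irradiated library at 6 h, 0.090 in its sham, 0.055 in the irradiated library at 1 week and 0.061 in its sham. On thinned cells the order for Relb turned in the irradiated library at 6 h (0.025 with Ccl4, 0.040 with Fos). It also turned in the sham at 1 week (-0.0008 with Ccl4, 0.012 with Fos), and held in the other libraries. Nfkb2 with Ccl4 had 0.073 in the irradiated library at 6 h and 0.065 in its sham. Ccl4 and Fos themselves had between 0.137 and 0.188. Nfkbia also had a correlation with the cell's log2 total UMIs, 0.098 in the irradiated library at 6 h and 0.080 in its sham. On cells thinned to 1 depth, Nfkbia had correlations with Fos of 0.141 in the irradiated library at 6 h, 0.176 in its sham, 0.230 in the irradiated library at 1 week and 0.253 in its sham.

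The genes most like Nfkbia by the mean Spearman correlation over the 4 libraries were Junb (0.280), Ier2 (0.244), Egr1 (0.224), Btg2 (0.222), Zfp36 (0.219), Fos (0.219), Atf3 (0.206) and Ier3 (0.205). All but Ier3 are on the immediate early list, and Ier3 is on the target list. Among the 45 pairs of the 10 genes, 5 had a mean correlation of at least 0.1, all between inhibitors: Nfkbia with Nfkbiz (0.230), Nfkbiz with Nfkbid (0.151), Nfkbia with Nfkbid (0.112), Nfkbiz with Tnfaip3 (0.111) and Nfkbia with Tnfaip3 (0.102). The median over all pairs was 0.0171. No pair of subunits was among these 5. In the irradiated library at 6 h, only Nfkbia with Nfkbiz (0.152) of these 5 reached 0.1, and Nfkbia with the subunit gene Relb had 0.102.

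**Figure D4:**
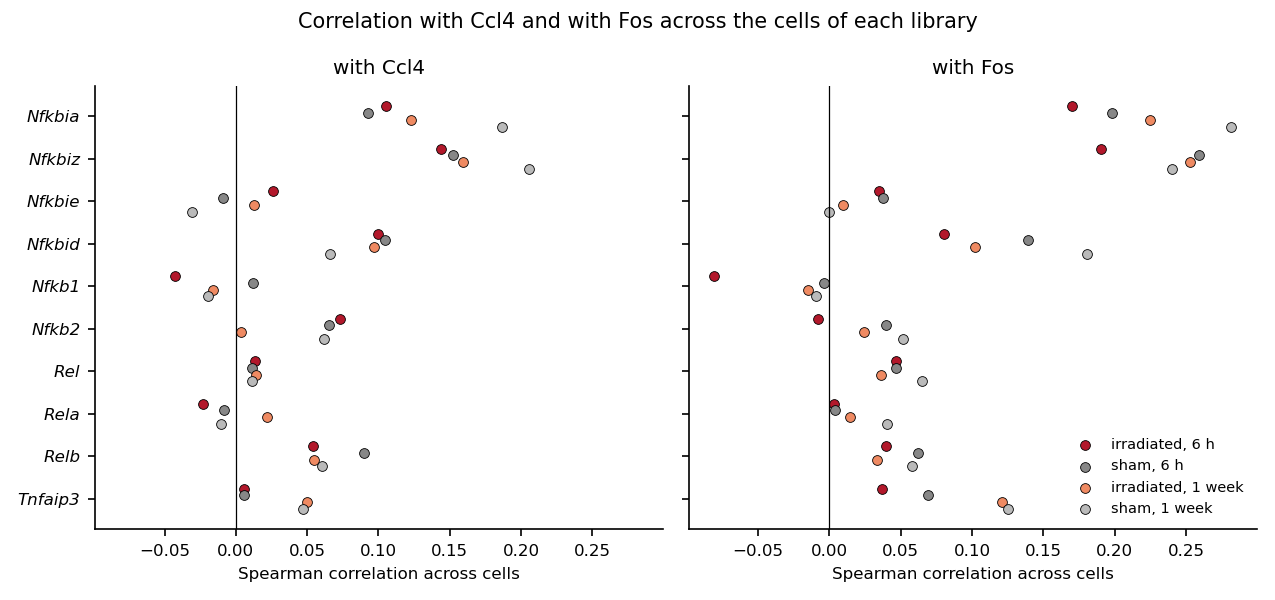
Spearman correlation of each of the 10 genes with Ccl4 (left) and with Fos (right) across the microglia-like cells of each library. Each point is 1 library, irradiated in red and orange and sham in greys. Nfkbia, Nfkbiz and Nfkbid lie to the right of 0 in all 4 libraries, while Rela and Nfkb1 lie near 0 or, for Nfkb1 with Fos in the irradiated library at 6 h, at -0.081.

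The same can be read in UMIs. In thinned cells with no Fos UMI, Nfkbia was at 259 CPM in the irradiated library at 6 h (238 to 281), 184 CPM in its sham (168 to 201), 167 CPM in the irradiated library at 1 week (148 to 189) and 184 CPM in its sham (159 to 213). In cells with at least 5 Fos UMIs it was at 957 CPM in the irradiated library at 6 h (139 cells), 900 CPM in its sham (230), 902 CPM in the irradiated library at 1 week (369) and 831 CPM in its sham (272). The libraries thus lay together where Fos was high, and the irradiated library at 6 h stood above the other 3 where Fos was not seen. Cells with a Fos UMI made up 40.2% in the irradiated library at 6 h, 44.8% in its sham, 60.1% in the irradiated library at 1 week and 63.3% in its sham.

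Folds of Nfkbia changed when taken within these classes. Irradiated over sham at 6 h, its log2 fold was 0.49 in cells with no Fos UMI (0.32 to 0.67) and 0.28 in cells with one (0.13 to 0.43). At 1 week it was -0.14 in cells with no Fos UMI (-0.41 to 0.14) and 0.01 in cells with one (-0.13 to 0.14). For the sham at 1 week over the sham at 6 h, it was 0.00 in cells with no Fos UMI (184 CPM in each, -0.25 to 0.25) and 0.31 in cells with one (0.16 to 0.45), beside 0.37 in all cells. Where no Fos UMI was seen, the interval between the shams thus included 0, and that of irradiated over sham at 6 h did not. How many cells with no Fos UMI held Fos RNA was not tested.

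By Ccl4, Nfkbia was at 384 CPM in cells with a Ccl4 UMI of the irradiated library at 6 h and 405 CPM in those of its sham, a log2 fold of -0.07 (-0.27 to 0.12). In cells with no Ccl4 UMI it was at 285 CPM in the irradiated library and 237 CPM in its sham, a log2 fold of 0.27 (0.12 to 0.42). Cells with a Ccl4 UMI made up 45.1% of the irradiated library at 6 h and 15.3% of its sham, so at 6 h such cells made up a larger share, and the interval of their Nfkbia fold included 0. Between the libraries at 6 h, Nfkbia in cells with 1 Ccl4 UMI was at 302 CPM in each, and in cells with 2 to 4 at 341 CPM in the irradiated library and 350 CPM in its sham. In cells with 5 to 19 Ccl4 UMIs it was at 417 CPM in the irradiated library at 6 h (359 to 481, 222 cells) and 867 CPM in its sham (693 to 1072, 49 cells). At 1 week it was at 662 CPM in the irradiated library (117 cells) and 684 CPM in its sham (79 cells). In this class, and not in the lower ones, the irradiated library at 6 h was below the other 3 by its interval, on few sham cells. With 20 or more Ccl4 UMIs, Nfkbia in that library was at 567 CPM (478 to 667, 127 cells), and the libraries are not compared in that class here.

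**Figure D5:**
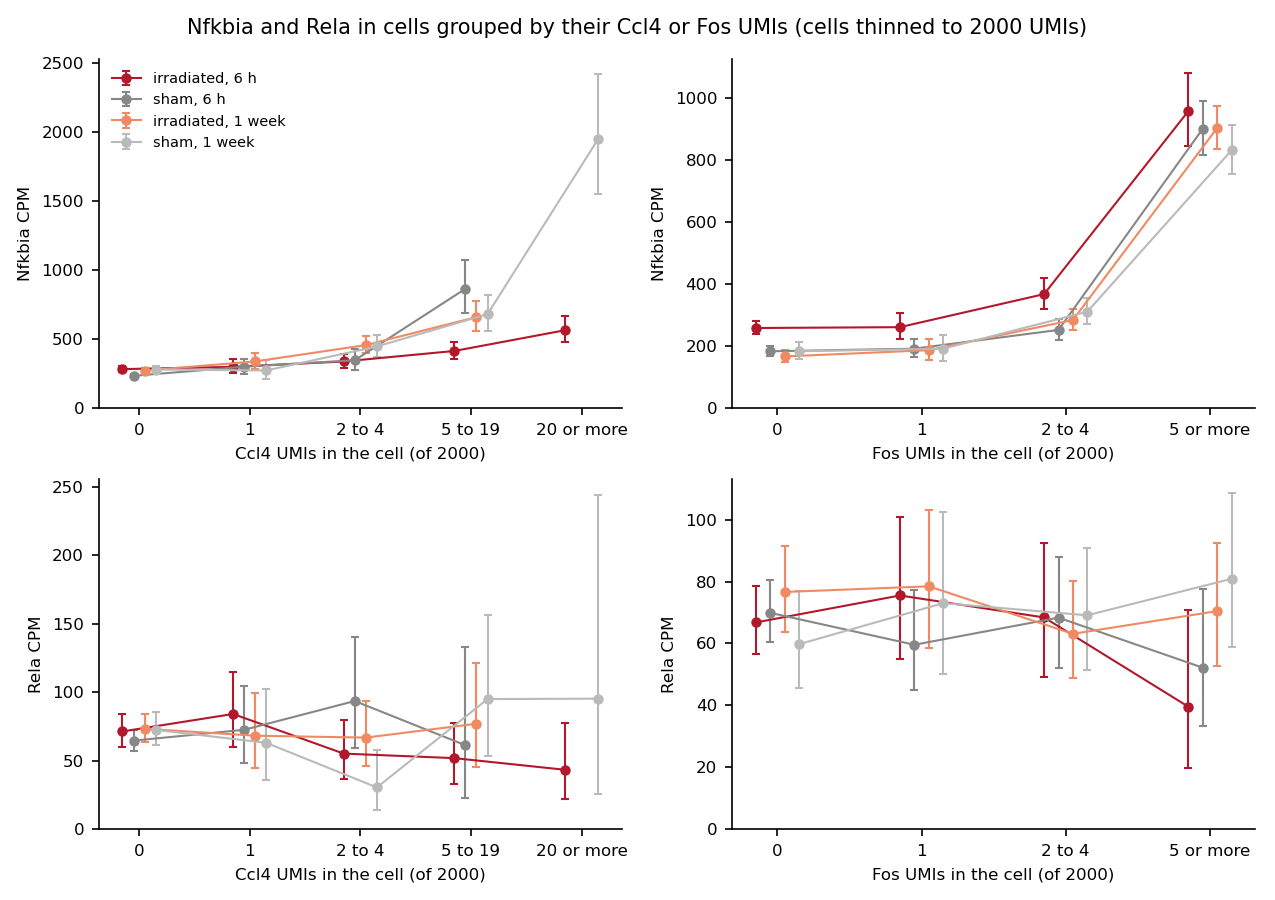
Nfkbia (top) and Rela (bottom) in CPM, in thinned cells grouped by their Ccl4 UMIs (left) or Fos UMIs (right), with exact 95% Poisson intervals, 1 line per library; classes of fewer than 20 cells are not drawn. Nfkbia climbs with both genes and reaches 831 to 957 CPM at 5 or more Fos UMIs, while the Rela intervals mostly overlap along each line.

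Nfkbiz and Nfkbid were also higher where Fos was seen. Nfkbiz in cells with a Fos UMI over cells with none had ratios of 3.96 in the irradiated library at 6 h, 4.11 in its sham, 5.81 in the irradiated library at 1 week and 4.97 in its sham. Nfkbid had ratios of 2.07 in the irradiated library at 6 h, 2.59 in its sham, 1.74 in the irradiated library at 1 week and 1.65 in its sham, the last with 1 inside its interval. Both genes were also higher where Ccl4 was seen. In the same order of libraries, the Ccl4 ratios of Nfkbid were 2.31, 2.63, 1.87 and 1.47, the last with 1 inside its interval. Those of Nfkbiz were 2.44, 2.92, 2.37 and 2.68. Nfkbid thus went with Ccl4 about as much as with Fos by this measure, and Nfkbiz less. Tnfaip3 had 1.03 in the irradiated library at 6 h (20 UMIs with and 29 without), 1.47 in its sham (56 and 47), 3.42 in the irradiated library at 1 week (36 and 7) and 1.87 in its sham (29 and 9). Of these Tnfaip3 ratios, only that of the irradiated library at 1 week had a counting interval clear of 1. Nfkbie did not share the split, with ratios of 1.31 in the irradiated library at 6 h, 1.33 in its sham, 0.862 in the irradiated library at 1 week and 0.917 in its sham, all with 1 inside the interval.

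Split by any Fos UMI, no subunit had a ratio with an interval above 1. A split at 5 or more Fos UMIs, as read above for Nfkbia, differed in the irradiated library at 6 h. There Relb was at 64.7 CPM (38.4 to 102, 18 UMIs), against 27.1 CPM with no Fos UMI (20.7 to 34.9). Nfkb1 was at 50.4 CPM (27.5 to 84.5, 14 UMIs), against 105 CPM (92.1 to 120). The intervals of Rel, Rela and Nfkb2 overlapped between these classes. The ratios below are for any Fos UMI. Rela had Fos ratios of 0.986 in the irradiated library at 6 h, 0.879 in its sham, 0.906 in the irradiated library at 1 week and 1.24 in its sham, each with 1 inside the interval. Nfkb1 had 0.799 in the irradiated library at 6 h, 1.05 in its sham, 0.992 in the irradiated library at 1 week and 0.981 in its sham, and only the first had an interval below 1, by a small margin. Nfkb2 had Fos ratios of 1.22 in the irradiated library at 6 h, 1.03 in its sham, 1.49 in the irradiated library at 1 week and 1.81 in its sham, on 8 to 44 UMIs per class. The Fos ratios of Rel lay between 0.985 and 1.12, and those of Relb between 0.965 and 1.24. By Ccl4, Relb had ratios of 1.17 in the irradiated library at 6 h, 1.81 in its sham, 1.44 in the irradiated library at 1 week and 0.977 in its sham, with 1 inside the interval in the first and last of these. Nfkb2 had Ccl4 ratios of 1.57 in the irradiated library at 6 h and 1.69 in its sham, and 0.937 in the irradiated library at 1 week and 0.994 in its sham, with 1 inside all 4 intervals.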

How the data were processed

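Droplet single-cell RNA was measured in 4 libraries, 1 per group. The authors deposited raw UMI counts per gene and barcode, which the submitters' processing notes tie to Cell Ranger 2.0 and mm10. No source used here gives the threshold for barcodes, the annotation release or whether strand was used. Barcodes were kept from 1000 UMIs and 500 genes with at most 10% mitochondrial UMIs (8369 of 8486). The design text states 8095 cells, with no filter named. Scrublet in scanpy 1.11.5, at an expected rate of 0.06, marked 45 barcodes (0.538%), which were removed. This is far below the expected rate, so doublets can remain. Leiden clusters (resolution 1) counted as microglia-like where 7 of 9 microglia markers reached 50 CPM and no other class had 3 markers raised 1.5-fold, a rule set after the clusters were seen.

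For each library, a gene's UMIs in the microglia-like cells were added up and divided by the total of those cells (CPM). Sums have exact Poisson intervals, ratios exact conditional binomial intervals and shares exact Clopper-Pearson intervals, all at 95%. PCR and cell capture add error that these intervals do not hold: they cover counting error only. With 1 library per group there are no replicates, so no test was made. A gene was measured in a comparison from 50 UMIs over both libraries, and called from 1.5-fold. For shares and for classes of cells, each cell was thinned to 2000 UMIs and shallower cells were left out. Correlations used log2(UMIs per 10000 + 1). The steps were tested on simulated data. Python 3.11.15, numpy 2.4.6, scipy 1.17.1, R 4.3.3 and edgeR 4.0.16 (TMM factors, an alternative scaling) were used.

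The genes and the pathway lists were chosen with earlier results of these data known. Named were all 10 genes, the 3 measured genes of each pathway list with the largest rise and the 3 with the largest fall past 1.5-fold at each time, the 8 genes most like Nfkbia across cells, and Ccl4, Ccl3, Fos, Cdkn1a and P2ry12. Folds within cells that hold a Fos or Ccl4 UMI were added after the data were seen. The alternatives were other cell filters, scalings, thresholds, thinning depths, correlation measures and the other sham library.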

Additional observations from a re-analysis of the deposited data

How the results depend on the processing

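No paired analysis was possible because each group has 1 library, and for the same reason no library could be left out within a group. The log2 folds of all 10 genes in all 4 comparisons (40 values) stayed within their counting intervals with TMM factors, with median-of-ratios size factors, with all deposited barcodes and with the stricter cell filter. Outside their intervals lay 17 of 40 folds in cells with no Fos UMI, 9 in cells with no Ccl4 UMI, 1 as a mean over cells and 10 of 20 against the sham library of the other time. No gene past 1.5-fold turned its direction.

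Counts of genes past 1.5-fold moved as follows. At 6 h, 1 gene was higher in place of 0 with TMM factors, with median-of-ratios factors and against the other sham. Lower in place of 1 were 2 genes as a mean over cells, 3 against the other sham and 0 at a 2-fold threshold. At 1 week, 1 gene was higher in place of 0 against the other sham, and 1 was lower in place of 0 in cells with no Fos UMI, as a mean over cells and against the other sham. Between the shams, higher in place of 1 were 3 genes in cells with no Ccl4 UMI, 2 with median-of-ratios factors, 2 as a mean over cells and 0 at 2-fold. Lower between the shams in place of 0 were 2 genes in cells with no Fos UMI and 1 in cells with no Ccl4 UMI. Between the irradiated libraries, 0 in place of 2 were higher at 2-fold. There, lower in place of 1 were 3 in cells with no Fos UMI, 0 in cells with no Ccl4 UMI and 0 at 2-fold. In cells without Fos or Ccl4 UMIs the minimum of 50 UMIs was applied to the whole libraries and not within the class: the 1 gene lower at 1 week with no Fos UMI is Tnfaip3, on 7 UMIs in the irradiated library and 9 in its sham (-1.05, interval -2.71 to 0.54). These cells are fewer and thinned, so their UMIs are fewer; beyond that the cause was not tested. Equal counts can hold other genes: with no Fos UMI, Nfkbie took the place of Tnfaip3 at 6 h, and Nfkbid that of Nfkbiz between the shams. A minimum of 200 UMIs moved no count by over 1.5 times. All 10 genes were measured in every comparison at 50 UMIs, so a minimum of 20 or none could not change their counts.

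No correlation moved by 0.1 with Pearson's measure, with all deposited barcodes or on thinned cells, which says little because many of the values are themselves smaller: Rel with Fos in the sham at 1 week was 0.0651, and 0.00179 on thinned cells. Pearson's measure on the thinned UMIs gave 0.449 for Nfkbia with Fos in the irradiated library at 1 week, against 0.280 on all cells on the log scale. Shares of cells depend on depth: without thinning all 40 moved, and at 1500 UMIs 31 of 40. Depth limits the rarest RNA most: Tnfaip3 rests on 81 to 179 UMIs per library.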

Other observations

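The 16 cells of a cluster kept out of the microglia-like set, which carried monocyte markers, held Nfkbia RNA at 886 CPM (counting interval 584 to 1288, 8 cells) in the irradiated library at 6 h and 869 CPM (449 to 1518, 5 cells) in the sham library at 6 h. The microglia-like cells of these libraries stood at 347 CPM in the irradiated library and 288 CPM in the sham library. P2ry12, a microglial gene, stood at 164 CPM in those 8 cells of the irradiated library and at 72.4 CPM in the 5 cells of the sham library, against 2939 and 6599 CPM in the microglia-like cells of the same libraries. At 1 week the cluster held 2 cells in the irradiated library (304 CPM of Nfkbia) and 1 in its sham (949 CPM). The other cluster kept out, 92 cells with border macrophage markers, went the other way at 6 h. Its Nfkbia was at 75.8 CPM (37.8 to 136, 65 cells) in the irradiated library and 154 CPM (56.5 to 335, 16 cells) in its sham. At 1 week the values were 101 CPM (7 cells) in the irradiated library and 799 CPM (4 cells) in its sham. The cells of both clusters were few and were grouped by their own RNA, so these values are a description.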
